A study of Mus musculus with 12 samples.

Results

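Elp2 and Trm1l are mouse genes whose products belong to tRNA modification. Their exon bins, which cut each gene model into pieces that do not overlap, were taken by gene name and row-name prefix from 6 deposited tables, and repeated rows were dropped. This gave 24 bins of Elp2 and 22 of Trm1l, 46 of the 925 bins with usable values. Transfer RNAs carry many chemically altered bases, and those at and near the anticodon tune how codons are read during translation. Elp2 encodes a WD-repeat subunit of Elongator, the complex that starts the modification of the wobble uridine of a subset of tRNAs, and in yeast loss of any Elongator subunit removes that modification. Trm1l, named Trmt1l in RefSeq, encodes a relative of TRMT1, the enzyme that methylates a guanine of many tRNAs to dimethylguanosine.

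All samples came from D1, a mouse cell line with no treatment or genetic change named in the labels, and were built by mixing reads from different libraries. The background reads came from an unstranded TruSeq library, a poly(A)-selected RNA-seq protocol, made from 1000 ng or from 100 ng of total RNA. Reads of listed transcripts were placed on top of it, drawn at source depths of 20M, 40M or 80M reads, where M stands for 1e6, of either a TruSeq library, which had 100 ng of RNA as input, or a NuGENv2 library, which had 2 ng. That gives 12 samples, 2 backgrounds by 2 kits by 3 source depths, each with 5 replicates. The transcript uc012baj.1 of Elp2 is listed for kit reads on the 1000 ng background and uc008egx.1 of Elp2 for kit reads on the 100 ng background. For Trm1l, uc007cyw.2 is listed on the 100 ng background among synthetic transcripts with a complex background of isoforms. The tables give bins and not transcripts, and the exon structures of the listed transcripts were not used here.

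None of 54 other tRNA modification genes looked up, which included the remaining Elongator subunits and Trmt1, and none of 29 cell type markers had rows in the tables, so neither the pathway nor the labelled cell line could be checked. Reads in bins ranged from 351523 to 593002 per replicate of the 1000 ng background with TruSeq reads, from 272360 to 492142 on the 100 ng background with 40M or 80M TruSeq reads, and from 237258 to 582003 with NuGENv2 reads. The 100 ng sample with 20M TruSeq source reads stood apart, at 1101798 to 1281559 reads. Its values are described on their own at the end. The labels do not say whether replicates came from separate cultures, so p-values measure the spread between these replicates, which may be technical.

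In the NCBIM37 mouse genome Elp2 (ENSMUSG00000024271.6) lies on the plus strand of chromosome 18 from 24762462 to 24798008. Bin lengths matched all 22 exons of the GENCODE transcript Elp2-201. E001 to E008 are exons 1 to 8, E010 is exon 9, and E012 to E024 are exons 10 to 22. E009 has the length of the whole of intron 8 (24774528 to 24775901), and E011 lies between exons 9 and 10. Transcript Elp2-202 has 19 exons and lacks exons 6, 7 and 8, which are E006, E007 and E008.

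Trm1l (ENSMUSG00000053286.5, named 1190005F20Rik in that annotation) lies on the plus strand of chromosome 1 from 153275778 to 153305312. E001 to E003 are parts of exon 1, E004 and E006 are exons 2 and 3, and E008 to E011 are exons 4 to 7. E005 has the length of the whole of intron 2 (153281035 to 153282857, 1823 bases, 41.7% G and C), which starts with GT and ends with AG, and E007 lies within intron 3. E012 and E013 lie between exons 7 and 8, and E016 lies between exons 9 and 10.

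Exons 2, 3 and 4 of Trm1l, on either side of its covered introns 2 and 3, are shown from the NCBIM37 genome, 5′ to 3′, with exon bases in capitals and 20 bases of flanking intron in lower case. Exon 2 is the span chr1:153280904-153281054, exon 3 is chr1:153282838-153282991 and exon 4 is chr1:153286626-153286730, all on the plus strand.
Trm1l exon 2: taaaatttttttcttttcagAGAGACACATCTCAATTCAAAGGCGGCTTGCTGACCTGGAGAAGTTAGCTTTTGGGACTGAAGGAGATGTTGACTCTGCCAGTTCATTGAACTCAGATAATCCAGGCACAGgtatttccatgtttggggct
Trm1l exon 3: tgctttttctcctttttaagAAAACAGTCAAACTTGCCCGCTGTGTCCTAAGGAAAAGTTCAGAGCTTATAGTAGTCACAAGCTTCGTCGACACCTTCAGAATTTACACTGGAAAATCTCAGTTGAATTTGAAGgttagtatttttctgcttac
Trm1l exon 4: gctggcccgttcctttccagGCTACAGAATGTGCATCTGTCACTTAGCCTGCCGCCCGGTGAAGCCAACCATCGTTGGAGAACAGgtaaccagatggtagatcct
Each exon is flanked by intron bases ending in ag before it and starting with gt after it. Exons 2, 3 and 4 hold 111, 114 and 65 bases.

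Levels are given in FPKM equivalents, which are reads per kilobase and per 1e6 reads after the replicates of a table had been scaled to each other. The model total is the reads of all bins over their summed length, intron bins included. Each table was scaled separately, so an order across tables is a description. The total of Elp2 was highest with 80M TruSeq reads, at 36.1 ± 1.07 on the 1000 ng and 34.9 ± 2.18 on the 100 ng background (SD, n = 5 each). With 40M TruSeq reads Elp2 measured 30.0 ± 0.78 on the 1000 ng and 28.8 ± 0.82 on the 100 ng background. At source depths of 20M, 40M and 80M NuGENv2 reads it measured 25.0 ± 0.99, 27.0 ± 0.85 and 30.9 ± 0.81 on the 1000 ng background, against 25.2 ± 0.74, 27.6 ± 0.97 and 32.3 ± 1.72 on the 100 ng background. Of the 11 pairs of neighbours in the order of the 12 levels, 8 differed by less than their SDs added together. The 3 that differed by more were the step between 40M and 20M NuGENv2 reads and both steps that involve the samples with 20M TruSeq reads. On the 1000 ng background Elp2 measured 19.9 with 20M TruSeq reads, below the 25.0 with 20M NuGENv2 reads. Its reads were not fewer there, at 2444 to 5612 per replicate against 2384 to 5552, and these tables were scaled separately. Leaving out the table of 20M TruSeq reads, Elp2 totals did not pass the test between backgrounds. At 80M TruSeq reads the log2 difference was 0.05 (95% interval -0.08 to 0.18, limma adjusted p = 0.56, exact permutation p = 0.34, two-sided), and at 20M NuGENv2 reads it was -0.01 (95% interval -0.11 to 0.08, limma adjusted p = 0.83). Among the 58 model totals 41.4% passed at 80M TruSeq and 5.17% at 20M NuGENv2 reads.

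Trm1l totals varied far more between replicates. At 80M TruSeq reads they were 17.4, 60.6, 68.5, 66.7 and 37.3 FPKM equivalents on the 1000 ng background, against 68.7, 162.8, 40.3, 108.0 and 37.3 on the 100 ng background. The backgrounds overlap, and the highest replicate was 3.93 times the lowest on the 1000 ng and 4.36 times on the 100 ng background. For Elp2 the ratio was 1.07 on the 1000 ng and 1.15 on the 100 ng background. The mean of Trm1l was 50.1 ± 22.1 on the 1000 ng and 83.4 ± 52.7 on the 100 ng background (SD, n = 5 each), a log2 difference of -0.65 (95% interval -1.79 to 0.48, limma adjusted p = 0.43, exact permutation p = 0.24, two-sided). In the tables of 40M TruSeq reads and of NuGENv2 reads, Trm1l averaged between 46.0 and 48.9 on the 1000 ng and between 81.4 and 83.1 on the 100 ng background. In the order of its 12 levels, 10 of 11 pairs of neighbours differed by less than their SDs added together. This count says little, because outside the 100 ng sample with 20M TruSeq reads the levels of a background rest on identical reads. Between those levels only the scaling differs.

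**Figure D1:**
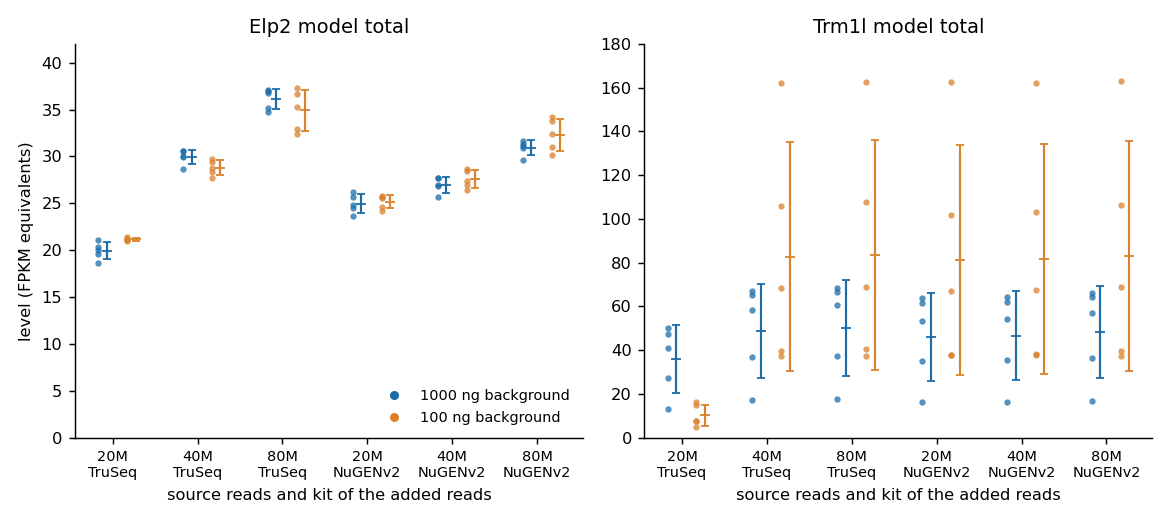
Model totals of Elp2 (left) and Trm1l (right) in FPKM equivalents, by kit and source reads of the added reads, with 1 point per replicate and the mean ± SD beside it. Outside the samples with 20M TruSeq reads, Elp2 lies between 23.7 and 37.3 with tight replicates, while Trm1l replicates of 1 background spread from 37.3 to 162.8 at 80M TruSeq reads.

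A few exon bins of Elp2 passed the test between backgrounds when TruSeq reads had been added. At 80M TruSeq reads 3 of its 24 bins passed the test, all higher on the 1000 ng background, where 21.4% of 922 tested bins passed in either direction and 7.92% were higher on the 1000 ng background. They were E005, E006 and E010, which are exons 5, 6 and 9. The TruSeq reads each bin gained from 40M to 80M were the same in all 5 replicates of a background. For those reads the p-values and the separation of replicates given here do not measure the spread of repeated draws. The median log2 difference over the 24 bins was 0.07, and over all tested bins it was 0.04. On the values as deposited, without scaling, 0 of the 24 passed.

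E006, absent from Elp2-202, measured 77.8, 69.2, 79.9, 61.8 and 74.9 FPKM equivalents on the 1000 ng background, against 29.9, 37.3, 52.3, 49.7 and 38.7 on the 100 ng background. Every replicate of the 1000 ng background was above every replicate of the 100 ng background, and E006 had the largest log2 difference of the Elp2 bins, 0.81 (SE 0.16, limma adjusted p = 0.0039). E010 measured 72.1, 61.7, 68.6, 72.5 and 69.1 on the 1000 ng background, against 37.8, 43.0, 40.3, 42.9 and 44.3 on the 100 ng background. Its groups do not overlap either, with a log2 difference of 0.71 (SE 0.087, limma adjusted p = 0.00019). E005 measured 67.3, 59.0, 71.0, 50.8 and 62.8 on the 1000 ng background, against 30.1, 33.5, 48.5, 44.9 and 34.6 on the 100 ng background. Here the lowest replicate of the 1000 ng background was just above the highest of the 100 ng background, and the log2 difference was 0.70 (SE 0.15, limma adjusted p = 0.0081). Over all tested bins, 5.97% had groups that do not overlap with the 1000 ng background above. E007, between them, averaged 63.8 ± 5.10 on the 1000 ng and 53.5 ± 6.10 on the 100 ng background (SD, n = 5) and did not pass (log2 difference 0.25, limma adjusted p = 0.14).

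**Figure D2:**
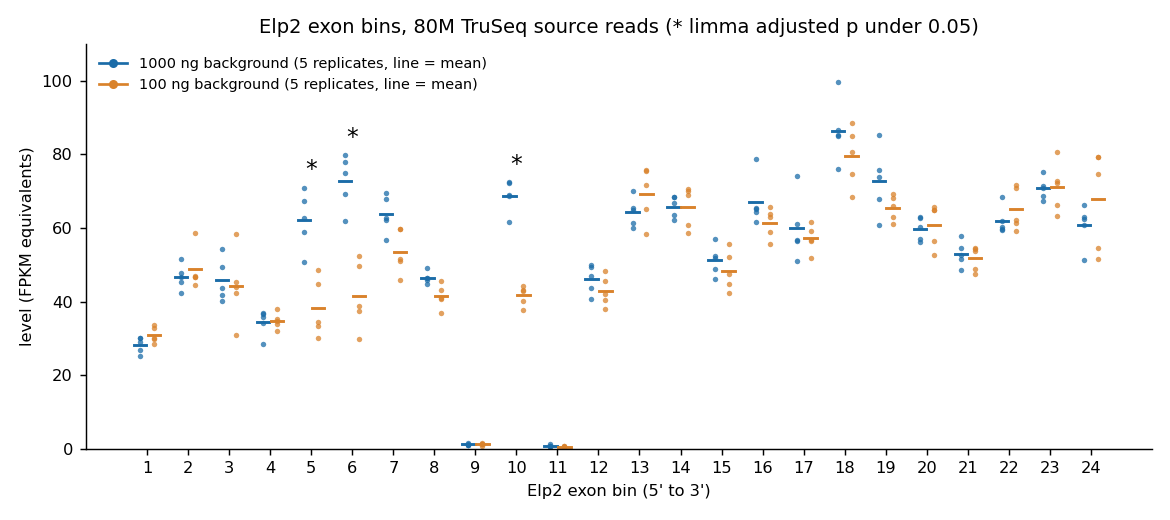
Levels of the 24 Elp2 bins with 80M TruSeq source reads, in FPKM equivalents, with 1 point per replicate and a line at the mean of each background. E005, E006 and E010, marked with a star, have all 5 replicates of the 1000 ng background above those of the 100 ng background, and E009 and E011, which lie outside the annotated exons of Elp2-201, are near 1.

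The relative use of Elp2 bins differed between backgrounds with TruSeq reads. The diffSplice F test of limma, which asks whether bins of a model change unequally, gave an adjusted p of 5.35e-14 at 80M and 0.00011 at 40M TruSeq reads, with 46.6% of the 58 models passing in each table. The TruSeq reads that Elp2 gained from 40M to 80M were the same in all 5 replicates of a background, as described below. For those reads the p-values of bin usage and of level do not measure the spread of repeated draws. On the values as deposited, with replicate 5 of the 100 ng background in another unit, the adjusted p at 80M was 1.0. E005, E006, E010 and the last bin, E024, passed for single bins at 80M (diffSplice adjusted p = 7.18e-07, 2.74e-09, 4.18e-07 and 0.044), where 19.1% of all tested bins passed. At 40M TruSeq reads E005, E006 and E010 passed for single bins (diffSplice adjusted p = 0.011, 0.00085 and 0.0014), against 13.9% of all tested bins. E024 holds the end of the transcript, and its level averaged 60.7 ± 5.63 on the 1000 ng and 67.9 ± 13.7 on the 100 ng background (SD, n = 5), with a log2 difference of -0.14 in level that did not pass (limma adjusted p = 0.62). At 40M TruSeq reads E010 alone passed by level, at 55.7 ± 3.07 on the 1000 ng and 39.8 ± 2.64 on the 100 ng background (log2 difference 0.48, limma adjusted p = 0.0031, against a background of 16.9% of bins called). E005 and E006 differed there by 0.41 and 0.49 on the log2 scale without passing (limma adjusted p = 0.11 and 0.063).

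With NuGENv2 reads no Elp2 bin passed at any depth by limma, and the unadjusted p was under 0.05 for 0, 0 and 1 of the 24 bins at 20M, 40M and 80M. A weighted count fit (limma-voom) also called 0 at 20M. Over all bins 1.95%, 4.99% and 12.3% passed in these tables. E006 averaged 42.8 ± 6.44 on the 1000 ng and 41.8 ± 7.49 on the 100 ng background at 20M NuGENv2 reads, and 45.4 ± 6.84 on the 1000 ng and 43.7 ± 8.22 on the 100 ng background at 80M (SD, n = 5). E010 averaged 44.2 ± 3.43 on the 1000 ng and 49.3 ± 4.25 on the 100 ng background at 80M NuGENv2 reads. Over the whole model, bin usage of Elp2 did not pass in any NuGENv2 table (diffSplice adjusted p = 1.0, 0.86 and 0.45 at 20M, 40M and 80M, where 27.6%, 31.0% and 39.7% of models passed). Of its single bins E011 passed at 80M NuGENv2 reads (diffSplice log2 difference 0.33 relative to the model, adjusted p = 0.014), where 10.8% of all tested bins passed, and none passed at 20M or 40M. E011 held 4 to 7 reads on the 1000 ng and 0 to 5 on the 100 ng background there. The difference between kits was not tested as an interaction.

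Tables of 1 kit share their backgrounds, so the reads a bin gained between depths are the reads that were added. Each Elp2 bin gained the same number of reads in all 5 replicates of a background. For replicate 5 of the 100 ng background this equality is no independent observation, because its read scale was found by starting from the gains of replicate 1. The reads gained between depths therefore added no spread between replicates before scaling. From 40M to 80M source reads Elp2 gained 619 TruSeq reads on the 1000 ng and 523 on the 100 ng background. It gained 360 NuGENv2 reads on the 1000 ng and 376 on the 100 ng background. With TruSeq reads the gain was equal in both backgrounds in 16 of 24 bins. The other 8 form a run of neighbours, E004 to E010 and E012, with E011 between them at 0 in both.

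Within that run, E006 gained 23 TruSeq reads on the 1000 ng background and 0 on the 100 ng background. E005 gained 21 reads on the 1000 ng and 0 on the 100 ng background, and E007 gained 10 on the 1000 ng and 0 on the 100 ng background. E010 gained 29 on the 1000 ng and 3 on the 100 ng background, the largest difference of any Elp2 bin. The 3 bins that passed by level also had the largest differences in reads gained between these depths. Reads placed at 20M were not separated from the background, and the part of the added reads in these calls was not tested. E008 gained 26 on the 1000 ng and 16 on the 100 ng background, so of the 3 bins absent from Elp2-202 only E006 and E007 received none on the 100 ng background. The remaining bins of the run, E004, E009 and E012, gained 16, 7 and 14 on the 1000 ng and 12, 8 and 11 on the 100 ng background. With NuGENv2 reads 19 bins gained equally, and E008 had the largest difference with 3 reads on the 1000 ng and 12 on the 100 ng background.

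**Figure D3:**
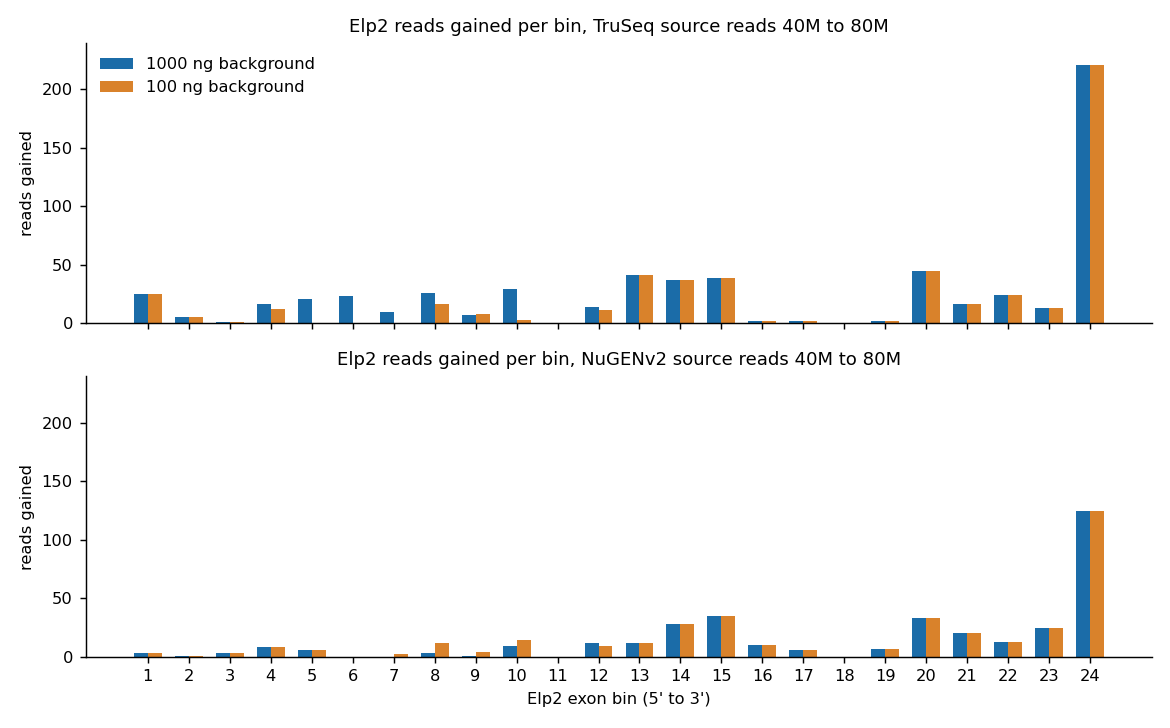
Reads gained by each Elp2 bin between 40M and 80M source reads, the same in all 5 replicates, for TruSeq (top) and NuGENv2 (bottom) reads and both backgrounds. With TruSeq reads E005, E006 and E007 gained 21, 23 and 10 reads on the 1000 ng and 0 on the 100 ng background, and E024 gained 221 in both.

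The reads Elp2 gained between 40M and 80M were set beside its reads in the 20M NuGENv2 table, which hold background reads together with reads added at that depth. E024 took a larger share of the gain than of that table. E024 gained the most of any bin, 221 TruSeq reads and 125 NuGENv2 reads in each background. This was 35.7% of the TruSeq gain on the 1000 ng background (95% Wilson interval 32.0 to 39.6%) and 42.3% on the 100 ng background (38.1 to 46.5%), and of the NuGENv2 gain it was 34.7% (30.0 to 39.8%) on the 1000 ng and 33.2% (28.7 to 38.2%) on the 100 ng background. At 20M NuGENv2 reads E024 held 11.1% ± 0.33 of Elp2 reads on the 1000 ng and 11.3% ± 0.87 on the 100 ng background (SD, n = 5). The intervals cover counting error only.

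The first 8 bins gained 20.5% of the added TruSeq reads on the 1000 ng background (17.5 to 23.9%) and 11.3% on the 100 ng background (8.85 to 14.3%). For NuGENv2 reads these shares were 6.67% (4.52 to 9.73%) on the 1000 ng and 9.31% (6.77 to 12.7%) on the 100 ng background. The same bins held 23.6% ± 0.93 of Elp2 reads on the 1000 ng and 24.5% ± 2.34 on the 100 ng background at 20M NuGENv2 reads (SD, n = 5), which the TruSeq interval on the 1000 ng background reaches. The share of the first bins on the 1000 ng background was thus lower for NuGENv2 than for TruSeq reads, with intervals that do not overlap. On the 100 ng background the intervals of the kits overlap. Each share rests on reads that were the same in all 5 replicates, so the intervals hold no spread of repeated draws. A difference between kits was not tested. E018, a short exon bin of high level, gained 0 reads from either kit, as did E011. E018 measured 86.5 ± 8.47 FPKM equivalents on the 1000 ng and 79.4 ± 8.03 on the 100 ng background at 80M TruSeq reads (SD, n = 5), the highest mean of any Elp2 bin in each.

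Between 20M and 80M source reads Elp2 gained 952 TruSeq reads on the 1000 ng background, 14.5 to 28.0% of its reads at 80M. Between the same depths it gained 559 NuGENv2 reads on the 1000 ng background (9.15 to 19.0%) and 580 on the 100 ng background (12.5 to 24.4%). Most Elp2 reads in every replicate of these samples were therefore already present at 20M.

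Trm1l gained no reads with kit or depth. All 22 bins held identical reads in every table and replicate, leaving out the 100 ng sample with 20M TruSeq reads. In these 5 tables its values change through scaling alone. Calls nevertheless moved from 0 of 22 bins at 20M and 40M NuGENv2 reads to 7 at 80M NuGENv2, 12 at 40M TruSeq and 13 at 80M TruSeq reads, all with the 100 ng background, which lists the transcript, higher. At an unadjusted p under 0.05 the count was 15 in each of the 5 tables, and limma-voom also called 0 at 20M NuGENv2 reads. Over the same tables the largest unadjusted p that passed moved from 0.0009 at 20M NuGENv2 to 0.0104 at 80M TruSeq reads, as more bins passed in all. Of all tested bins 7.16%, 10.5% and 13.4% were higher on the 100 ng background at 80M NuGENv2, 40M TruSeq and 80M TruSeq reads.

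The 13 bins lie in E008 to E022, from exon 4 onward, and include E012 and E016, which lie between exons. The median log2 difference over the 22 bins was -1.35. E008 (exon 4) measured 28.0, 51.2, 45.1, 26.9 and 71.1 FPKM equivalents on the 1000 ng background, against 153.9, 265.3, 79.4, 140.5 and 59.0 on the 100 ng background. The backgrounds overlap at the fifth replicate of each, and the log2 difference was -1.53 (SE 0.42, limma adjusted p = 0.027), the largest of the 22 bins. E018 (exon 11) averaged 53.4 ± 21.3 on the 1000 ng and 168.0 ± 102 on the 100 ng background (log2 difference -1.50, limma adjusted p = 0.038). E020 (exon 13) averaged 59.4 ± 20.0 on the 1000 ng and 182.1 ± 114 on the 100 ng background (SD, n = 5; log2 difference -1.42, limma adjusted p = 0.046). E013 and E021 did not pass (limma adjusted p = 0.23 and 0.053), and no Trm1l bin had groups without overlap, against 12.4% of all tested bins with the 100 ng background above.

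The number of calls was not stable when 1 replicate was left out, while the log2 difference of the Trm1l total stayed negative (-0.88 to -0.32) without passing. Leaving out replicate 1, 3 or 4 of the 1000 ng background or replicate 1, 2 or 4 of the 100 ng background left 0, and leaving out replicate 2 of the 1000 ng background left 4. Leaving out any of the other 3 gave 12 to 15. The values as deposited, with replicate 5 of the 100 ng background in another unit, gave 0. Bin usage of Trm1l did not pass in these 5 tables (diffSplice adjusted p = 0.92 at 80M TruSeq reads).

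**Figure D4:**
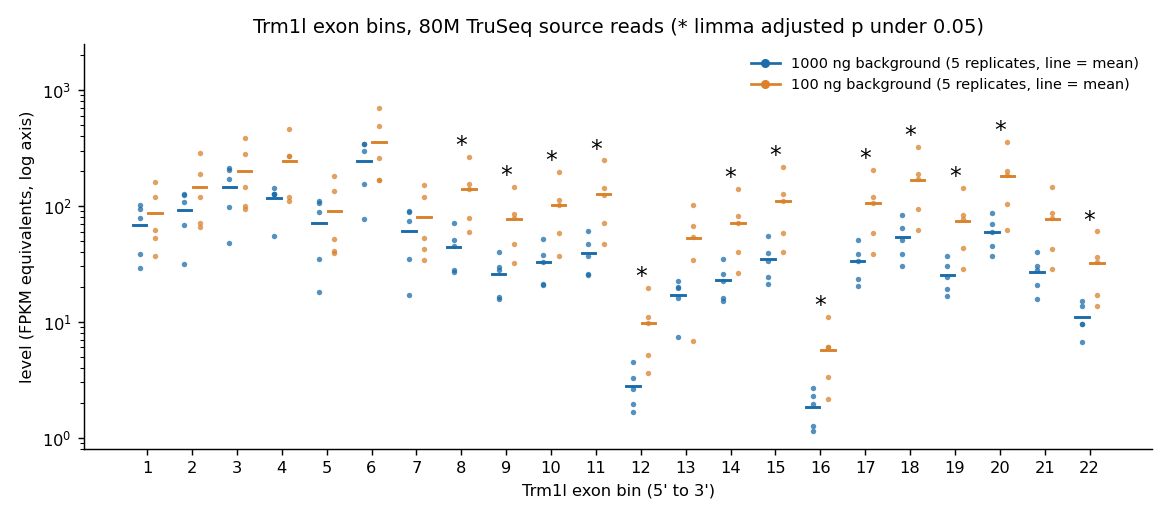
Levels of the 22 Trm1l bins with 80M TruSeq source reads, in FPKM equivalents on a log axis, with 1 point per replicate and a line at the mean of each background. The 13 bins marked with a star lie from E008 onward with the 100 ng mean higher, and the points of both backgrounds overlap in every bin.

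The first part of Trm1l carried most of its reads. E001 to E007 held 69.4, 83.4, 87.6, 90.8 and 65.0% of Trm1l reads on the 1000 ng background, against 56.4, 68.4, 63.1, 75.1 and 73.2% on the 100 ng background. The backgrounds overlap, with means of 79.2% ± 11.4 on the 1000 ng and 67.2% ± 7.61 on the 100 ng background (SD, n = 5). Exons 3 and 4, printed above, differed in coverage in every replicate. Per base, E006 (exon 3) stood at 219 to 1278% of E008 (exon 4) on the 1000 ng and at 168 to 348% on the 100 ng background.

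The intron bins E005 and E007 of Trm1l were covered in both backgrounds. Later bins between exons stood lower beside the exon before them. At 20M NuGENv2 reads E012 averaged 2.59 FPKM equivalents on the 1000 ng and 9.57 on the 100 ng background, against 36.1 and 123.6 in E011. E016 averaged 1.70 on the 1000 ng and 5.57 on the 100 ng background, against 31.8 and 108.0 in E015. The short bin E013 averaged 15.7 on the 1000 ng and 51.4 on the 100 ng background. E005, intron 2, held 825, 6870, 4376, 5098 and 1317 reads on the 1000 ng background, against 1629, 5227, 2410, 7145 and 1201 on the 100 ng background. This was 25.8 to 45.6% of Trm1l reads on the 1000 ng and 20.9 to 34.9% on the 100 ng background. Per base, E005 stood at 27.6% ± 4.46 of exon 3 on the 1000 ng and at 24.3% ± 2.83 on the 100 ng background. Of exon 2, its other neighbour, E005 stood at 57.9% ± 26.2 on the 1000 ng and at 35.8% ± 11.5 on the 100 ng background. There the replicates ranged from 27.3 to 86.7% on the 1000 ng and from 19.1 to 50.7% on the 100 ng background. E007 stood at 24.2% ± 1.88 of exon 3 on the 1000 ng and at 22.6% ± 2.34 on the 100 ng background (SD, n = 5 each). In Elp2 the intron bin E009 stood at 1.18 to 2.31% of E010 on the 1000 ng and at 1.01 to 2.36% on the 100 ng background at 20M NuGENv2 reads, below every replicate of E005 and E007 in Trm1l.

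Where 20M TruSeq reads had been joined to the 100 ng background, each replicate held 2568 more Trm1l reads, in all 22 bins, and 16876 more Elp2 reads, in all 24 bins, than in the 20M NuGENv2 table. The numbers were the same in all 5 replicates, with the same limit for replicate 5. In the 1000 ng background of that table Trm1l differed by 0 and Elp2 by 60 reads net. Over the series 916 bins and 864540 reads were added in this sample. Of the added Trm1l reads 1.17% lay in E005 and E007 and 18.2% in E001 to E007. Per kilobase they amounted to 9.33 reads in E005 against 1195 in exon 3 and 1906 in exon 4, so exon 4 was above exon 3 in the added reads and below it in both backgrounds.

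**Figure D5:**
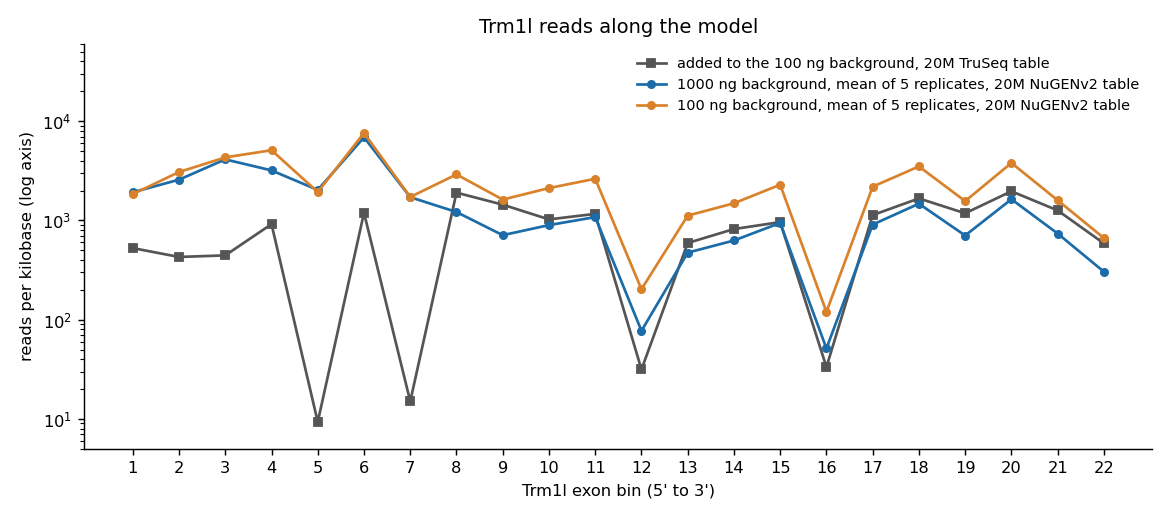
Reads per kilobase along the 22 Trm1l bins on a log axis, for the reads added to the 100 ng sample with 20M TruSeq reads and for the mean of 5 replicates of each background at 20M NuGENv2 reads. The added reads drop to 9.33 per kilobase in E005 and 15.0 in E007, where the backgrounds stand between 1715 and 2029.

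In that table Trm1l had the opposite direction from the other 5 after scaling. Its reads did not change on the 1000 ng background. On the 100 ng background they rose from 3950 to 20466 per replicate at 20M NuGENv2 reads to 6518 to 23034. Size factors, by which reads are divided, were 2.33 to 2.59 on the 100 ng and 0.33 to 0.73 on the 1000 ng background. Scaled in this way, Trm1l measured 35.8 ± 15.5 FPKM equivalents on the 1000 ng and 10.3 ± 4.85 on the 100 ng background (SD, n = 5), a log2 difference of 1.68 (limma adjusted p = 0.0052, exact permutation p = 0.024), with 8 bins higher on the 1000 ng background and 0 higher on the 100 ng background. Elp2 measured 19.9 ± 0.91 on the 1000 ng and 21.1 ± 0.14 on the 100 ng background, a log2 difference of -0.08 (limma adjusted p = 0.036, exact permutation p = 0.024), with 12 bins higher on the 100 ng background and E024 alone higher on the 1000 ng background. The same 16876 added reads made up most of the 18677 to 20919 Elp2 reads of each 100 ng replicate. The SD and the p-values of Elp2 here therefore do not measure the spread of 5 separate draws, and the 2568 added Trm1l reads share this limit. Bin usage passed for Trm1l (diffSplice adjusted p = 7.29e-07) and for Elp2 (diffSplice adjusted p = 4.05e-11), as it did for 58.6% of models. For single bins it passed in 5 bins of Trm1l, E001, E003, E005, E006 and E007, and in 6 of Elp2, against 18.1% of all tested bins. By level 62.4% of all tested bins passed there, 32.6% higher on the 1000 ng and 29.7% higher on the 100 ng background, and 79.3% of model totals passed. Within this table the added reads and the input amount of the background are not separated. At 20M NuGENv2 reads the same backgrounds were present without the reads added here. There the log2 differences of the totals were -0.73 for Trm1l and -0.01 for Elp2, with 0 bins called for either gene. The part of the added reads was not tested.

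Across the 10 replicates of both backgrounds at 20M NuGENv2 reads, the model totals most like that of Elp2 were those of Gas5, a snoRNA host gene, with a Pearson r of 0.60, Pla2g15, a lysosomal phospholipase, with 0.59, and Fbf1 with 0.57. Those most like Trm1l were Bcl2l13 with 0.68, Rcbtb2 with 0.66 and Ppp2r3a with 0.50. Elp2 and Trm1l had an r of -0.16 with each other. These values are on log2 totals, share libraries and scaling, and are given without a test.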

How the data were processed

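RNA-seq values of exon bins in 12 samples, 5 replicates each, were used from 6 deposited tables, 1 for each kit and source depth, with 1744 rows each, of which 818 were repeats. Tables whose columns carry no TruSeq mark were taken as NuGENv2. The submitters' processing notes name STAR, Cuffdiff and the build mm9. The sources used here do not name the tool that assigned reads to bins. From the values, the deposited signal was reads over bin length in 9 of 10 columns, and was further divided by the library total in 1e6 reads in 100 ng column 5. Bin lengths and this total were inferred from the values, and a length so found was the end minus the start. The total of 100 ng column 5 was found by starting from the assumption that its bins gain the reads of replicate 1 between tables, then adjusted until its values came out whole. Multiplying back gave whole reads for 100.0% of values within 0.001 reads, in column 5 as in the others. That scale had not been foreseen in the plan of the tests.

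Columns were scaled by median-of-ratios size factors, at the level set by that last column. Each table was fitted with limma 3.58.1 in R 4.3.3 on log2(FPKM equivalent + 1) over 922 bins or 58 models, 5 replicates against 5, two-sided, calling an adjusted p (Benjamini-Hochberg) under 0.05. Differences of low values are understated on this scale. Bins of listed models were always tested and others from a mean of 1, so all 46 member bins were tested in each table. Bin usage was tested with diffSplice, and single totals also by exact permutation, whose smallest p is 0.0079. Scripts ran in Python 3.11.15 with SciPy 1.17.1, and the fits of bins, bin usage and model totals were tested on simulated data. Bins were matched to NCBIM37 and its GENCODE vM1 annotation by length. The library is unstranded per the labels' protocols, so reads of overlapping antisense genes cannot be told apart. Bins were named where limma called them at 80M TruSeq reads or where they gained the most or fewest TruSeq reads, and the 3 most alike models by Pearson r. Members, lists and tests were chosen with earlier results of these data known. Alternatives covered scaling, pseudocount, filter, test, replicate block and leaving out replicates.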

Additional observations from a re-analysis of the deposited data

Results flagged for a closer look

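In the sample that joins 20M TruSeq reads to the 100 ng background, 16876 reads of Elp2 and 2568 reads of Trm1l were present beyond those of the 20M NuGENv2 table, against 60 and 0 on the 1000 ng background. This sample stood outside the main comparisons.

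Among 64 groups of 5 replicates, 1 had a replicate whose gap to its nearest neighbour was a large part of the range. Elp2 E011, the bin between exons 9 and 10, measured 1.33 FPKM equivalents in replicate 5 on the 1000 ng background at 80M TruSeq reads, where the next replicate was at 0.787 (gap over range 0.762, critical value 0.71). It rests on 7 reads. Chance flags about 1 in 20 groups.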

How the results depend on the processing

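At 80M TruSeq reads the same 3 Elp2 bins were called in 19 of 20 alternatives. With the values as deposited, which are not scaled and hold 100 ng column 5 in another unit, the calls were 0 for Elp2 and 0 for Trm1l, and bin usage of Elp2 had an adjusted p of 1.0. The replicate numbers did not pair the samples (same-number correlations from -0.38 to 0.09), and with the replicate block the calls at 80M TruSeq reads were 3 for Elp2 and 0 for Trm1l, with an adjusted p of 4.29e-09 for Elp2 usage. Leaving out 1 replicate gave 0 to 15 Trm1l calls. The log2 difference of the Elp2 total changed sign while not passing any test: at 80M TruSeq reads to -0.0312 with size factors from bins without kit reads, an alternative added after seeing the data, and at 20M NuGENv2 reads to 0.24 as deposited and 0.0044 with quantile normalization. Leaving out 1 replicate gave -0.0289 to 0.0061 there. The cause was not tested. At 80M TruSeq and at 20M NuGENv2 reads, the tables in which alternatives were run, the Trm1l totals kept their direction without passing in 20 of 20 alternatives each. Bins with few reads, such as E011 of Elp2 with 0 to 7 reads outside the table of 20M TruSeq reads, limit what these depths can show.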
